A study of Mus musculus with 6 samples.

Results

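The core loop of the circadian clock was followed here through 8 genes, Arntl (also called Bmal1), Clock, Npas2, Per1, Per2, Per3, Cry1 and Cry2, each measured by 1 of the 25428 probe sets, so that all 8 were found. They are a family of known function, but were chosen with the measured values of this very contrast known, so their differences between the groups are given as a description, with no p and with counts past a threshold only beside the share of all probe sets. Expression was measured in RNA from a lung lobe of 6 adult male mice, 1 array per mouse, after 7 days of normobaric hypoxia at 10% oxygen. 3 mice were Nfat5fl/fl controls, in which Nfat5 carries recombination sites but is intact, and 3 were Nfat5(SMC)-/- mice, in which a Cre recombinase driven by the smooth muscle myosin heavy chain promoter (SM-MHC-CreERT2) removes Nfat5 from smooth muscle cells (SMCs). Tamoxifen had been given to the Nfat5(SMC)-/- mice and its solvent miglyol to the controls, so the drug and the deletion cannot be told apart. The paper describes both treatments in male offspring of the cross with the Cre line, so the controls may carry the Cre as well, not induced. The labels number the mice of each group 1, 2 and 4, and values are given in that order. No source used here gives the hour at which lungs were taken.

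In the clock, the basic helix-loop-helix PAS proteins CLOCK or NPAS2 pair with ARNTL on E-box elements and drive the genes of their own repressors, the period (PER) and cryptochrome (CRY) proteins. PER and CRY gather in the nucleus, block the pair and are then broken down, and the cycle starts again each day. REV-ERB and ROR receptors, which act on RRE elements, set the level of Arntl, and the PAR-bZIP factors DBP, TEF and HLF act on D-box elements. In the lung the loop runs in epithelial, endothelial and smooth muscle cells, and in most tissues the transcripts of Arntl, Clock and Npas2 peak at the opposite time of day to those of Per and Dbp. Per1 also responds within hours to glucocorticoids and other acute signals.

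The values are log2 expression levels, normalised so that each array has the same distribution, with a median of 4.96. A difference of 1 is therefore a doubling, and a change is read against the rest of the array. Levels of different genes were not set against each other, since each probe set has its own response. A lung lobe holds many cell types, and fewer cells of a type cannot be told apart from less RNA per cell.

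Elements of the kind that clock factors bind were searched, on both strands, in the 250 bases before each annotated start site (RefSeq, GRCm38.p6). The table held 11 such windows for 7 of the 8 genes, with Per2 as the exception. The 4 windows with an E-box (CACGTG), an E'-box (CACGTT, which reads AACGTG on the other strand) or a D-box (TTATGTAA or TTACGTAA) are shown because they belong to repressor genes, which the loop itself drives. Capitals mark the matches, and in Per1 also the core of an RRE (AGGTCA, here on the other strand as TGACCT).
Per1, chr11:69098753-69098847, plus strand: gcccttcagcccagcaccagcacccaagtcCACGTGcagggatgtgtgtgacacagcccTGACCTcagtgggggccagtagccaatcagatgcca
Per3, chr4:151044786-151044900, minus strand: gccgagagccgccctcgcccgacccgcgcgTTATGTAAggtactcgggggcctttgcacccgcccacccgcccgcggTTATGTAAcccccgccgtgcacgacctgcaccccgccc
Cry1, chr10:85185079-85185163, minus strand: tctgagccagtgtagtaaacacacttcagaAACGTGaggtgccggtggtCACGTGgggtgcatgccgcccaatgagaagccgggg
Cry2, chr2:92434200-92434265, minus strand: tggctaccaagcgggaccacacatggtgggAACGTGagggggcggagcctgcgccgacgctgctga
Counted from the start site, the E-box of Per1 began at position -166 and its RRE core at -137. Per3 held 2 copies of the D-box, at -205 and -158. Cry1 held an E-box at -60 and an E'-box at -79, and Cry2 an E'-box at -166. Over all 32851 windows of the same length, an E-box was present in 6.02%, an E'-box in 3.85%, a D-box in 0.931% and an RRE core in 14.0%. No window of Arntl or Npas2 held any of these letters, and of the 3 windows of Clock 1 held an RRE core. The core of NFAT5 sites, TGGAAA, which was present in 18.6% of all windows, was in none of the 11 windows, and neither was the cyclic AMP element TGACGTCA (1.55%) or a full glucocorticoid element, AGAACANNNTGTTC (0.0304%).

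The lungs of 2 mice stood apart, each on another measure. On the first principal component, which held 49.56% of the variance, mouse 1 of the Nfat5(SMC)-/- group had a score of 55.8, against 3.57 and 3.12 for the other Nfat5(SMC)-/- lungs and -21.6 to -20.1 for the controls. Control mouse 2 lay with the other controls on that component (-20.8), but carried the brown fat gene Ucp1 at 8.42, against 4.47 and 4.32 in the other controls and 8.32 to 9.41 in Nfat5(SMC)-/- lungs. Results are therefore also given without these lungs. Nfat5 itself was at 9.18, 8.62 and 9.21 in the controls, listed by mouse number, and at 8.23, 7.72 and 7.89 in Nfat5(SMC)-/- lungs, with no overlap. It differed by -1.06 (SE 0.20), with an adjusted p of 0.0707 in limma.

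The 3 activators were lower and Per1 was higher in Nfat5(SMC)-/- lungs, while the other 4 genes overlapped between the groups. Npas2 had the largest difference downwards, -1.31 on the log2 scale (SE 0.15) or 2.48-fold lower, followed by Arntl at -0.93 (SE 0.29) and Clock at -0.76 (SE 0.11). Per1 was 2.79-fold higher, by 1.48 (SE 0.36). Of the 8 genes, 3 lay wholly below the controls, as did 15.0% of all probe sets, and 1 lay wholly above them, as did 11.8%. In limma 1 of the 8, Npas2, passed an adjusted p of 0.05 as lower and 0 as higher. Of all probe sets 0.818% passed, 0.558% as lower and 0.26% as higher. Since the genes were selected on this contrast, nothing is read from these counts.

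**Figure D1:**
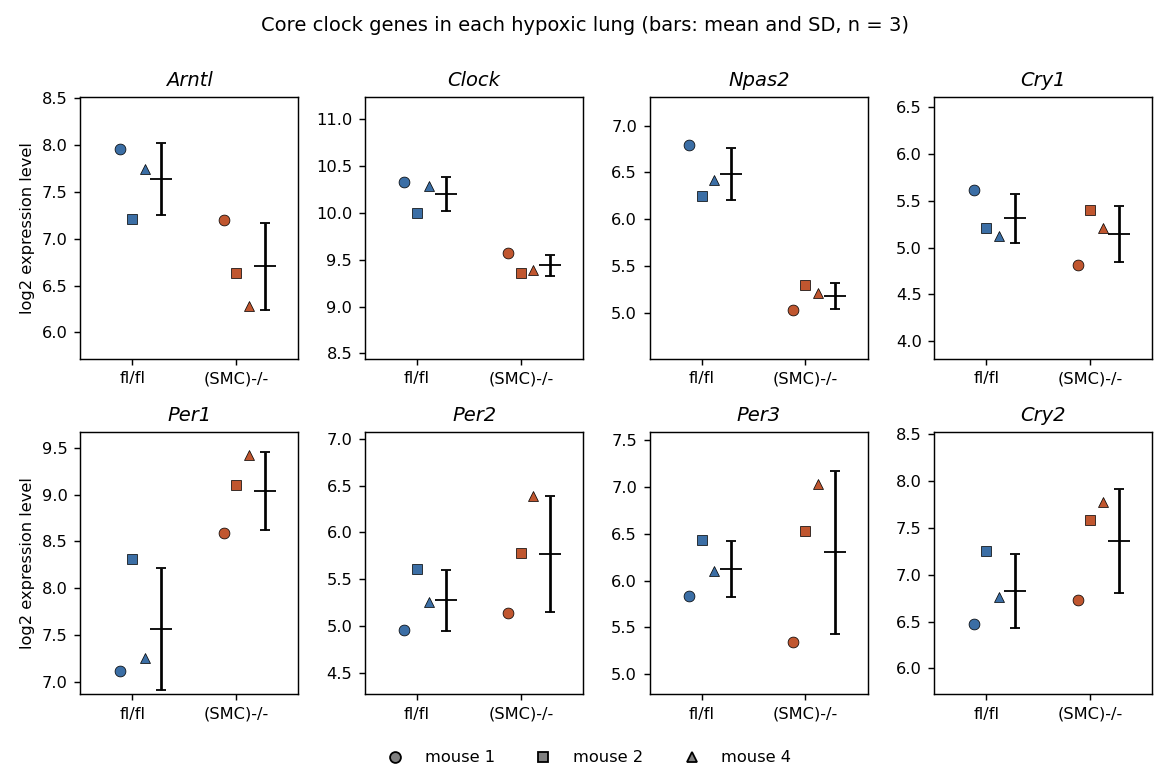
Level of each core clock gene (y axis, log2 expression level, a separate scale of equal length per gene) in the 3 Nfat5fl/fl (blue) and 3 Nfat5(SMC)-/- (orange) lungs, with the symbol giving the mouse number and bars the mean and SD. Arntl, Clock and Npas2 lie lower and Per1 higher in all 3 Nfat5(SMC)-/- lungs, with a gap of 0.95 for Npas2 and of 0.0039 for Arntl, and the other 4 genes overlap.

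Npas2 (Entrez gene 18143, chromosome 1), the partner of ARNTL that can stand in for CLOCK, was at 6.79, 6.25 and 6.41 in the control lungs and at 5.03, 5.29 and 5.21 in the Nfat5(SMC)-/- lungs. The lowest control lay 0.95 above the highest Nfat5(SMC)-/- lung, a gap wider than the range within either group (0.54 and 0.27). Means were 6.48 ± 0.28 and 5.18 ± 0.14 (SD, n = 3 each), which placed Npas2 at rank 16 from the lowest difference of all 25428 probe sets. The difference was 5.96 times the SD within groups, the highest such ratio among the 8 genes.

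Clock (Entrez gene 12753, chromosome 5), which also carries histone acetyltransferase activity, was at 10.33, 10.00 and 10.29 in the controls and at 9.57, 9.36 and 9.39 in Nfat5(SMC)-/- lungs. Both groups were tight, with means of 10.20 ± 0.18 and 9.44 ± 0.12 (SD, n = 3 each), and the gap between them was 0.42. Clock was thus 1.70-fold lower with the smallest spread of the 8 genes, 0.15 within groups.

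Arntl (Entrez gene 11865, chromosome 7), the one core factor for which there is no full substitute in the loop, was at 7.96, 7.21 and 7.75 in the controls and at 7.20, 6.64 and 6.28 in Nfat5(SMC)-/- lungs. The groups were separated by only 0.0039, the distance between control mouse 2, the lowest control, and Nfat5(SMC)-/- mouse 1, and these are the lungs that stood apart. Means were 7.64 ± 0.39 and 6.71 ± 0.46 (SD, n = 3 each). Without Nfat5(SMC)-/- mouse 1 the difference was -1.18, and without both of these lungs -1.39.

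Per1 (Entrez gene 18626, chromosome 11), the period gene that reacts fastest to outside signals, was at 7.12, 8.31 and 7.26 in the controls and at 8.59, 9.11 and 9.42 in Nfat5(SMC)-/- lungs. Control mouse 2 was more than 1 log2 unit above the other controls and lay 0.28 below the lowest Nfat5(SMC)-/- lung. Means were 7.56 ± 0.65 and 9.04 ± 0.42 (SD, n = 3 each), and Per1 stood at rank 55 from the highest difference of all probe sets. The difference was 2.08 with both lungs that stood apart left out and ranged from 1.26 to 1.85 with each lung left out in turn.

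Per2 (Entrez gene 18627, chromosome 1), a scaffold of the repressor complex, was at 4.96, 5.60 and 5.25 in the controls and at 5.14, 5.78 and 6.38 in Nfat5(SMC)-/- lungs. Per3 (Entrez gene 18628, chromosome 4), the period gene that the loop can do without, was at 5.84, 6.43 and 6.10 and at 5.34, 6.53 and 7.04. For both genes Nfat5(SMC)-/- mouse 4 was the highest of the 6 lungs and mouse 1 lay among or below the controls. The differences were 0.50 (SE 0.33) for Per2 and 0.18 (SE 0.43) for Per3, or 1.00 and 0.28 times the SD within groups. For Per3 the sign hung on single lungs. It was 0.66 higher without Nfat5(SMC)-/- mouse 1 and -0.19 without Nfat5(SMC)-/- mouse 4. The Per3 range of 1.70 within Nfat5(SMC)-/- lungs, against 0.60 within the controls, was the widest of any of the 8 genes.

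Cry1 (Entrez gene 12952, chromosome 10), the stronger and later repressor, was at 5.61, 5.21 and 5.12 in the controls and at 4.82, 5.40 and 5.21 in Nfat5(SMC)-/- lungs. Cry2 (Entrez gene 12953, chromosome 2), its paralog, was at 6.47, 7.25 and 6.76 and at 6.73, 7.58 and 7.78. The paralogs differed in sign and both overlapped between the groups. Cry1 was at -0.17 (SE 0.19), and at -0.01 without Nfat5(SMC)-/- mouse 1. Cry2 was at 0.53 (SE 0.32), and at 0.85 without that lung.

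To set the arms of the loop side by side, the mean of Arntl, Clock and Npas2 minus the mean of Per1, Per2 and Per3 was taken in each lung, relative to its mean over the 6 lungs. It was 1.46, 0.10 and 1.02 in the controls and -0.02, -0.97 and -1.58 in Nfat5(SMC)-/- lungs, each in the order of mice 1, 2 and 4. Every control lay above every Nfat5(SMC)-/- lung, but control mouse 2 and Nfat5(SMC)-/- mouse 1 were closer to each other than to any lung of their own group. As the genes were chosen on this contrast, nothing is read from the separation. The group means differed by -1.72, with an SD of 0.74 within groups, and by -1.36 to -2.14 with each lung left out in turn. The activator mean alone was 7.82 to 8.36 in the controls and 6.96 to 7.27 in Nfat5(SMC)-/- lungs, while the mean of the Per genes was 5.97 to 6.78 and 6.36 to 7.61 and overlapped.

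The same genes also varied among mice of 1 genotype. SDs within groups were 0.65 for Per3, 0.55 for Per1, 0.50 for Per2, 0.48 for Cry2 and 0.43 for Arntl, each larger than in at least 92.4% of the 12833 probe sets with a mean above the array median. They were 0.28 for Cry1, 0.22 for Npas2 and 0.15 for Clock, where the median of those probe sets was 0.19. Within the controls, mouse 2 was the highest for Per1, Per2, Per3 and Cry2 and the lowest for Arntl, Clock and Npas2, and mouse 1 was the reverse for all 7. Within Nfat5(SMC)-/- lungs, mouse 4 was the highest for the same Per1, Per2, Per3 and Cry2 and the lowest for Arntl, and mouse 1 was the lowest for those 4, and for Npas2 and Cry1, and the highest for Arntl and Clock. Over all 12833 brighter probe sets, control mouse 2 was the highest control in 44.0% and mouse 1 the lowest in 40.2%, and Nfat5(SMC)-/- mouse 4 the highest of its group in 30.2% and mouse 1 the lowest in 49.7%.

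**Figure D2:**
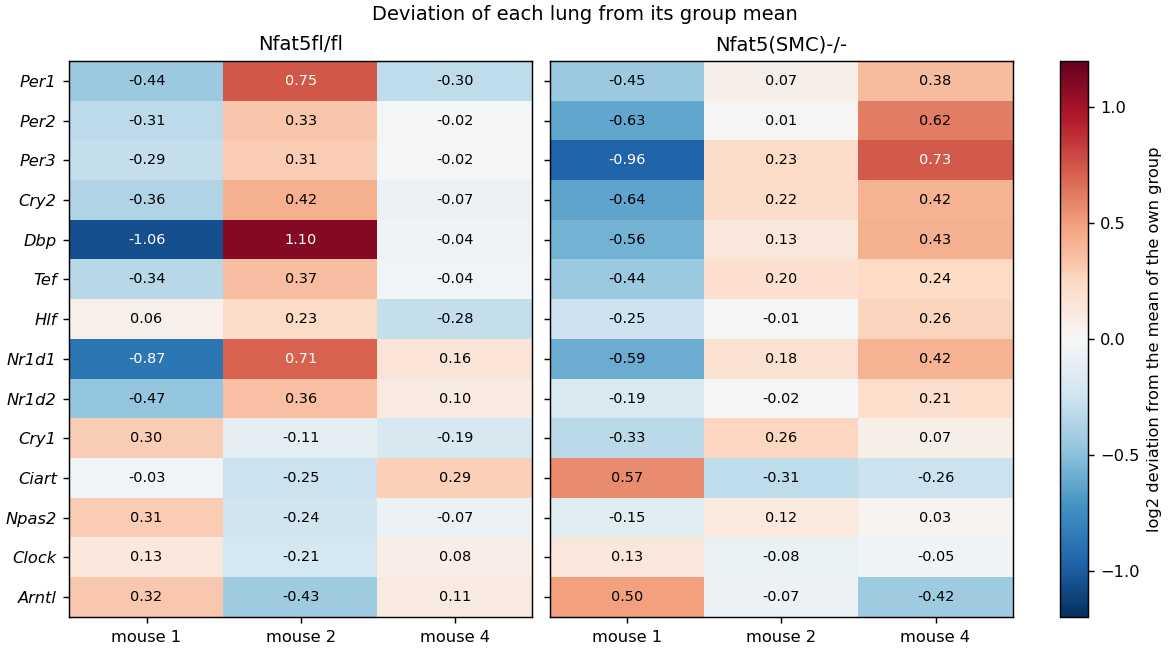
Deviation of each lung from the mean of its own group (colour and number, log2) for the 8 core genes and 6 genes of the output and stabilising loop (rows), with the mice of each group as columns. Per1 to Per3, Cry2, Dbp, Tef and Nr1d1 are highest in control mouse 2 and in Nfat5(SMC)-/- mouse 4 and lowest in mouse 1 of both groups, from -1.06 to 1.10 for Dbp in the controls, and Arntl runs the other way.

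Most genes of the output and stabilising loop had these orders within groups too. Dbp, whose E-boxes are bound by CLOCK and ARNTL, was at 6.51, 8.67 and 7.52 in the controls and at 8.80, 9.50 and 9.79 in Nfat5(SMC)-/- lungs. Control mouse 2 lay just below the lowest Nfat5(SMC)-/- lung, and Dbp differed by 1.80 (SE 0.56, adjusted p 0.161 in limma). Nr1d1, which encodes REV-ERB alpha, the repressor of Arntl, was at 8.65, 10.22 and 9.67 and at 9.71, 10.48 and 10.72, with overlap. Of the 12 genes of this list, control mouse 2 was the highest control for 8 and mouse 1 the lowest for 8, and Nfat5(SMC)-/- mouse 4 was the highest of its group for 7 and mouse 1 the lowest for 8.

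Across the groups, 0 of these 12 genes passed the test in either direction, and at an unadjusted p under 0.05 there were 1 higher and 1 lower, with a median difference of 0.32. Over all probe sets the median was -0.0008, and 19.3% had an unadjusted p under 0.05, 8.19% as higher and 11.1% as lower. The counts before adjustment given for this and the lists that follow are to be set against these shares. Of the 12, 8 were higher and 4 lower. Besides Dbp and Nr1d1 (0.79, SE 0.45), the higher ones included the E-box repressor Bhlhe41 (0.52), the PAR-bZIP activators Tef (0.47) and Hlf (0.36) and the bZIP repressor Nfil3 (0.34). Rora, which activates Arntl through RREs, was lower by -0.45, with an adjusted p of 0.0665 in limma and no overlap. Nr1d2 (-0.07), the paralog of Nr1d1, and Rorb (-0.08) lay near 0.

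The kinases, ubiquitin ligases and other enzymes that set the lifetime of PER and CRY had 18 measured genes, of which 0 passed the test (before adjustment 2 were higher and 3 lower at 0.05), and a median of -0.03. The paralogs of glycogen synthase kinase 3 differed in sign, Gsk3a at 0.38 and Gsk3b at -0.41. Usp2, a deubiquitinase whose transcript is itself rhythmic, was at 0.46, Prkaa2, a catalytic subunit of the AMP-activated kinase, at -0.65 and Cul1, the scaffold of a ubiquitin ligase family, at -0.26. Among 15 cofactors of the loop 0 passed, with 2 higher and 6 lower at 0.05 before adjustment and a median of -0.29. The 6 were the deacetylase Sirt1 (-0.41), the demethylase Kdm5a (-0.33), the corepressor Ncor1 (-0.59), the methyltransferase Kmt2a (-0.77), the acetyltransferase Crebbp (-0.33) and the RNA-binding protein Sfpq (-0.53). Parp1 (0.37) and Wdr5 (0.42) lay on the other side.

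CLOCK, NPAS2 and ARNTL belong to the family of bHLH-PAS factors, which also holds the sensors of oxygen and of xenobiotics. Of 16 relatives and coactivators 0 passed the test. The median was -0.10, and at an unadjusted p under 0.05 there were 0 higher and 4 lower ones. Hif1a, the hypoxia-inducible factor, was at -0.48 (adjusted p 0.0618 in limma), Epas1, its endothelial paralog, at -0.34, the aryl hydrocarbon receptor Ahr at -0.44 and the coactivator Ncoa1 at -0.24. Arntl2, the paralog of Arntl, was at -0.10. The differences of these 16 genes ran from -0.48 to 0.19, and 3 of the 16 had a mean below the lower quartile of the array values. They are not set against Npas2, Arntl and Clock, which were chosen on this contrast.

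Among 8 further genes that the clock controls, 0 passed, and 1, Klf9, was higher at an unadjusted p under 0.05 (0.68, adjusted p 0.073 in limma). Their median was 0.04. Klf9, Tsc22d3 and Cdkn1a are also in the list of 12 glucocorticoid-responsive genes, which was read because Per1 responds to glucocorticoids. In that list 2 genes rose and 0 fell, with 5 higher and 1 lower at 0.05 before adjustment, and the median was 0.26. The genes that rose were Ddit4, an inhibitor of mTORC1 (1.64, adjusted p 0.0416 in limma), and Zbtb16, a zinc finger factor (1.54, adjusted p 0.0494). Fkbp5, a cochaperone of the glucocorticoid receptor, was at 5.55, 5.62 and 5.37 in the controls and at 6.59, 6.12 and 7.24 in Nfat5(SMC)-/- lungs, with no overlap and an adjusted p of 0.102. Of the 12 genes 8 were higher and 4 lower. The lower ones were the receptor gene Nr3c1 (-0.46), Dusp1 (-0.16), Sgk1 (-0.12) and Mt2 (-0.08), so the list did not move as a whole. The mean of the list was 7.87 to 8.04 in the controls and 8.29 to 8.60 in Nfat5(SMC)-/- lungs, and its part in the level of Per1 was not tested.

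**Figure D3:**
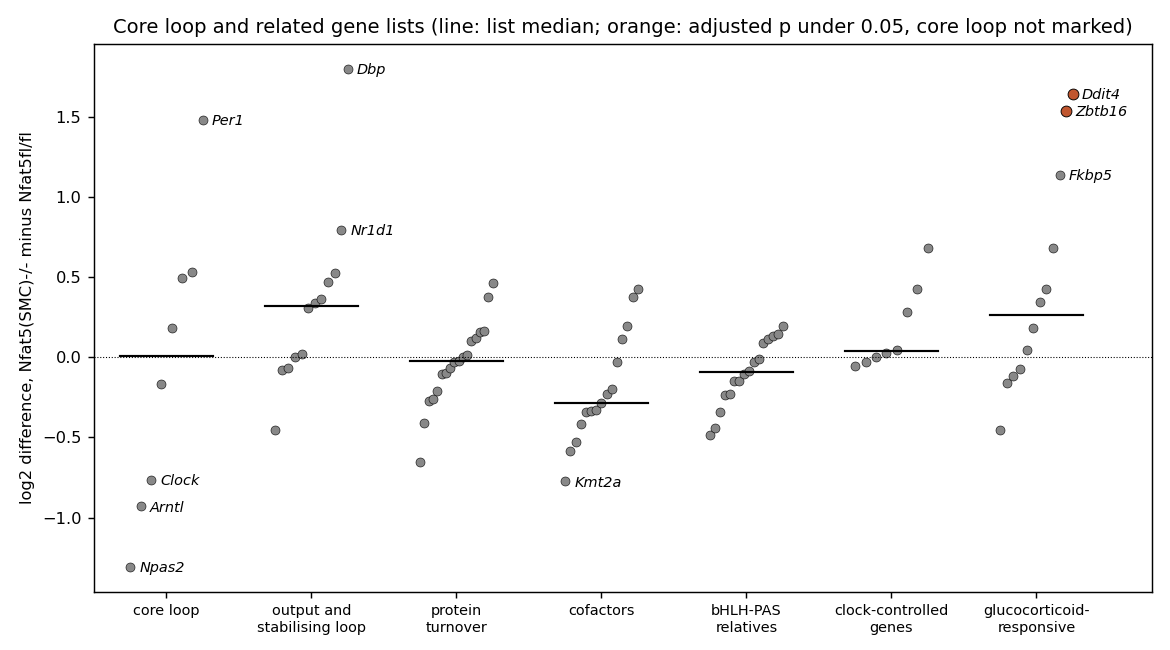
Difference between Nfat5(SMC)-/- and Nfat5fl/fl lungs (y axis, log2) of every measured gene (points, ordered by value) in the core loop and 6 related lists (x axis), with lines at list medians and orange points for an adjusted p under 0.05 in limma. The core loop, whose genes were chosen on this contrast and are not marked, spans -1.31 to 1.48 around a median near 0, and orange points appear for Ddit4 and Zbtb16.

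The differences of the 8 genes were ordered by the length of the gene. Per1, which spans 14.9 kb of the genome, introns included, was the highest, followed by Cry2 (30.4 kb), Per2 (43.4 kb), Per3 (47.7 kb), Cry1 (53.4 kb), Clock (95.7 kb) and Arntl (135.7 kb), and Npas2, the longest at 169.5 kb, was the lowest. Long genes were lower and short genes higher on these arrays in general. In 10 bins of about 1279 brighter probe sets each, the median difference went from 0.27 in the bin of shortest genes to -0.25 in the bin of longest genes. For each lung, the median of the longest genes minus that of the shortest was taken after each gene was centred on its mean over the 6 lungs. It was 0.20 to 0.32 in the controls and -0.50 to -0.04 in Nfat5(SMC)-/- lungs, lowest in mouse 1. The signs are relative to that mean and do not compare the levels of long and short genes.

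**Figure D4:**
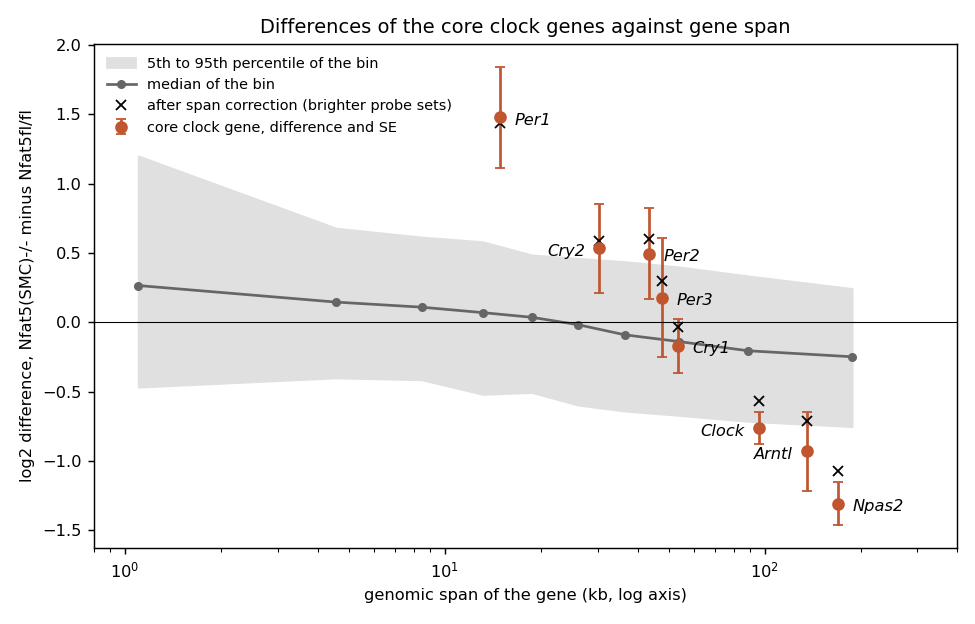
Difference between Nfat5(SMC)-/- and Nfat5fl/fl lungs (y axis, log2) of the 8 core genes (orange, with SE) against genomic span (x axis, kb, log scale), with the median and the 5th to 95th percentile of all brighter probe sets in 10 bins of span. The bin medians fall from 0.27 to -0.25, and Npas2, Arntl and Clock lie below and Per1, Cry2 and Per2 above the shaded band.

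Set against genes of like length, 6 of the 8 lay outside the 5th to 95th percentile of their bin. Npas2 (-1.31) and Arntl (-0.93) lay below the band of -0.75 to 0.24 of the longest genes, and Clock (-0.76) just below its band of -0.71 to 0.34. Per1 (1.48) lay well above its band of -0.52 to 0.58, and Cry2 (0.53) and Per2 (0.50) a little above theirs, whose upper ends were 0.46 and 0.44. Per3 and Cry1 lay within theirs. As the 8 genes were chosen on this contrast, nothing is read from the count. The related lists, in which Gsk3a spans 9.59 kb and Gsk3b 157.08 kb, were not set against gene span. After each array had been corrected for gene span, the differences were -1.18 for Npas2, -0.81 for Arntl, -0.65 for Clock and 1.46 for Per1, and with the correction fitted to brighter probe sets -1.07, -0.71, -0.57 and 1.44. Each of these 4 genes kept its sign under both corrections, while 60 and 4 of all probe sets passed the threshold in place of 208, and 0 of the 8 genes in place of 1.

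Markers of fat cells moved with the group. Of 10 adipocyte genes all 10 were higher in Nfat5(SMC)-/- lungs and 3 passed the test in limma, with a median of 2.24, and the mean of the list was 5.97 to 6.56 in the controls and 7.79 to 8.71 in Nfat5(SMC)-/- lungs. Of 6 brown adipocyte genes 0 passed (3 higher at an unadjusted p under 0.05), with list means of 4.74, 5.95 and 4.69 in the controls and of 6.05, 6.52 and 6.13 in Nfat5(SMC)-/- lungs. Control mouse 2 was thus nearest to the Nfat5(SMC)-/- lungs in the mean of the brown adipocyte list as well as in Per1 and Dbp. It had been singled out by Ucp1, which is part of that list, so its nearness there follows in part from that choice. A link of brown fat to Per1 or Dbp was not tested. In that list Ucp1, Cidea and Cox8b were higher by 3.17, 2.08 and 1.63. Elovl3 (0.08), Dio2 (-0.01) and Ppargc1a (-0.29) did not follow. The adipocyte means did not overlap between the groups, so fat content and genotype cannot be told apart in these lungs. Of 10 lung epithelial genes 0 passed (2 higher and 0 lower at 0.05 before adjustment), with list means of 11.25 to 11.46 and 11.29 to 11.49. Sftpc, the surfactant protein C of alveolar type II cells, was at 13.31 to 13.65 over all lungs, which shows that lung tissue is present but, at the top of the range of the arrays, not whether its level was steady. The 7 smooth muscle genes, the labelled target cells of the deletion, had a median of -0.12 with 0 past the test (1 higher at an unadjusted p under 0.05), and their list mean was 8.37 to 8.78 in the controls and 8.52 to 8.64 in Nfat5(SMC)-/- lungs. The 7 endothelial genes had a median of -0.27 with 0 past the test and 5 lower at an unadjusted p under 0.05. The 6 cardiac genes were at a median of -0.18 (1 lower at 0.05 before adjustment) and the 6 leukocyte genes at 0.24 (1 higher), with 0 past the test in either list.

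Likeness of profile was measured as the root mean square (RMS) difference of the 6 values from those of another gene, each centred on its own mean, over protein-coding probe sets above the array median. Among the core genes themselves, Per2 and Cry2 were the nearest pair, with an RMS difference of 0.13, and Cry2 was the closest of all candidates to Per2. Per2 and Per3 differed by 0.23, Arntl and Clock by 0.26, and Clock and Npas2 by 0.32. Per1, with its larger amplitude, was 0.51 from Cry2. The nearest genes were Tef and the sulfotransferase gene Sult1a1 for Cry2 (0.11 each), Errfi1, an inhibitor of EGF receptor signalling, for Per2 (0.14), and Pfkfb3, a glycolytic regulator, for Per3 (0.17).

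For Per1 the nearest profiles were those of Cox8b (0.25), the cytochrome oxidase subunit counted among the brown adipocyte genes, Slc27a1 (0.30), a fatty acid transporter, and Aqp7 (0.31), the glycerol channel of fat cells. The profile of Npas2 was nearest to Ptar1 (0.11), D830031N03Rik (0.14) and Synj2bp (0.15), that of Clock to Atad2b, Akap11 and Manea (0.04 to 0.05), and that of Arntl to Marchf7, Gbp4 and Ckap5 (each 0.15). Cry1, whose difference was the smallest of the 8 genes, was nearest to the replication helicase gene Mcm7 (0.05) and to Agk (0.06) and Nln (0.07). Profiles were centred but not scaled, so nearness depends on the size of the differences as well as on shape. With 6 lungs and so many candidates these are the closest profiles and no more.

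Without Nfat5(SMC)-/- mouse 1, Clock was at -0.83, Npas2 at -1.23 and Per1 at 1.70. Without both lungs that stood apart Clock was at -0.93, Npas2 at -1.35 and Cry2 at 1.06. These are the lungs nearest to the other group in the difference between activators and Per genes, so a wider difference of these arms follows from leaving them out. Not every gene followed, as Npas2 was at -1.31 with all lungs and narrowed to -1.23 without Nfat5(SMC)-/- mouse 1. Without control mouse 1, 2 or 4, or Nfat5(SMC)-/- mouse 2 or 4, 0 probe sets passed, so that the calls of Npas2, Ddit4, Zbtb16 and the 3 adipocyte genes each depended on every one of these lungs. Npas2 still differed by -1.43 to -1.15 in these fits.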

How the data were processed

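RNA of 6 lung lobes (3 Nfat5fl/fl and 3 Nfat5(SMC)-/- mice, 7 days at 10% oxygen) had been hybridised to GeneChip mouse gene arrays, 1 array per mouse. The table deposited by the authors gives log2 expression for 1 probe set per Entrez gene, after RMA and quantile normalisation. RMA is credited to the submitters' processing notes, and no source used here gives its version or a genome build. Sorted values of the arrays lay within 0.0015 of their mean, which hides any change common to every gene. Arrays carry no read depth, and their number, 3 per group, limits the precision.

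Groups were taken from the sample labels. Differences are Nfat5(SMC)-/- minus Nfat5fl/fl, fitted over all 25428 probe sets (lmFit and eBayes of limma 3.58.1, R 4.3.3, two-sided, no covariate, no filter, Benjamini-Hochberg adjustment, threshold 0.05), and the fit was tested on simulated data. For the 8 core genes no p is given. The genes and lists were chosen with earlier results of these data known, and lists are described by counts and medians. Named are the 8 genes, Nfat5, up to 3 of the nearest profiles of each core gene, and a few defining markers. In the related lists up to 4 genes with the smallest p per direction and any past the threshold are named. More are named in the output, cofactor and bHLH-PAS lists. Symbols, gene spans and promoter windows came from RefSeq GRCm38.p6, which matched 25237 probe sets, and Lyz2 was not matched. Brighter probe sets are those with a mean above the array median.

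Alternatives were the methods' t-test, a mean-dependent or robust prior, array weights, cyclic loess, centring on brighter probe sets, filters on level, a block for the mouse number, a per-array loess correction for gene span (smoothing span 0.3), the adipocyte mean as a covariate and each lung left out in turn. A span correction fitted to brighter probe sets and leaving out both lungs that stood apart were added after seeing the data.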

Additional observations from a re-analysis of the deposited data

How the results depend on the processing

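The number of probe sets past the threshold moved from 208 to 0 with the methods' t-test after adjustment (3951, 1562 higher and 2389 lower, before it), 2 with a mean-dependent prior, 3263 (1379 higher and 1884 lower) with array weights, 1 after cyclic loess, 33 (17 higher and 16 lower) above the median level, 60 (32 higher and 28 lower) after the gene span correction, 4 with that correction fitted to brighter probe sets, 0 with the adipocyte covariate, 1452 without both lungs that stood apart, and 0 to 980 with each lung left out. A robust prior (147), centring on brighter probe sets (209) and a filter at the lower quartile (180) kept it within 1.5 times. Of the 8 core genes, 1 passed in the main setting. With the t-test 0 passed after adjustment and 3 before it, 5 passed with array weights and 5 without both lungs that stood apart, 0 with a mean-dependent prior, cyclic loess, either span correction or the adipocyte covariate, and 0 to 2 with each lung left out. Since these genes were chosen on this contrast, nothing is read from their counts.

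Clock and Npas2 kept their sign in all 20 alternatives, Arntl, Per1, Per2, Cry1 and Cry2 in 19 and Per3 in 18. The t-tests, the other priors, the filters on level and the block for the mouse number leave the difference itself unchanged. A sign could not change in those settings, so they add nothing to these counts. Signs changed with the adipocyte covariate, under which Arntl was at 0.58, Per1 at -0.25, Per2 at -1.27, Per3 at -2.28 and Cry2 at -1.13, with Clock at -0.33, Npas2 at -1.69 and Cry1 at -1.10. Adipocyte means did not overlap between the groups, so this fit extrapolates and cannot tell the covariate from the genotype. Cry1 was at 0.07 with array weights, and the cause was not tested. The span correction fitted to brighter probe sets moved Clock to -0.57 and Npas2 to -1.07, and leaving out both lungs that stood apart moved Arntl to -1.39, Clock to -0.93, Per1 to 2.08 and Cry2 to 1.06. With each lung left out, Arntl ranged from -1.18 to -0.72, Clock from -0.87 to -0.70, Npas2 from -1.43 to -1.15, Per1 from 1.26 to 1.85, Per2 from 0.19 to 0.81, Per3 from -0.19 to 0.66, Cry1 from -0.30 to -0.01 and Cry2 from 0.33 to 0.85. The difference between activators and Per genes stayed between -1.72 and -1.50 under 6 other settings. Centring is among these and could not change it, since a shift common to all genes of a lung cancels.

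With the mouse number as a replicate block, 0 probe sets and 0 core genes passed. Deviations from the group means correlated at 0.133, 0.411 and 0.078 for the lungs numbered 1, 2 and 4. Nfat5(SMC)-/- mice 1 and 2 correlated best with the control of the same number, but mouse 4 with control mouse 1 (0.145). With so few lungs these correlations cannot decide whether the mice were paired. The labels state no pairing, so the shared numbers were not taken to pair the mice.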
